A study of Mus musculus with 4 samples.

Results

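The peaks described here lie over genes for small non-coding RNAs. They come from a CLIP-seq experiment on MSI2, an RNA-binding protein of the Musashi family, in mouse intestinal epithelium. CLIP-seq joins protein and RNA in living cells with ultraviolet light, precipitates the protein, and sequences the RNA fragments that come with it. A peak was taken when it overlapped, by 1 base or more, a nuclear RefSeq gene with the biotype snRNA, tRNA, rRNA, snoRNA, miRNA, scRNA or misc_RNA. By this rule 397 of the 16939 peaks in the TRE-Msi2 list and 344 of the 12061 peaks in the WT list were members, 741 of 29000 in all.

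The TRE-Msi2 group consisted of mice with that genotype whose total intestinal epithelium was collected after 24 hours of doxycycline. The WT group consisted of wild-type mice whose intestinal crypts were collected, with no doxycycline recorded. Both groups had the C57BL6 background, and each contributed 2 libraries that the authors merged into 1 peak list. No driver of the transgene is given in the labels, and genotype, tissue fraction and doxycycline cannot be told apart in any difference between the lists. Each list is thus 1 value per peak with no spread between replicates, so no difference between the lists was tested. Intervals below are exact 95% Clopper-Pearson intervals for shares and cover counting error only. Scores are given without intervals.

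The score of a peak is the authors' own value and behaves as a number of reads per 200-nt bin. Of single-bin scores, 96.7% in TRE-Msi2 and 99.1% in WT were whole numbers. Peaks wider than 1 bin appear to carry the mean over their bins. Both readings were inferred from the values, since the lists do not define the score. Single-bin peaks started at a score of 20 in the TRE-Msi2 list and of 15 in the WT list. The depth of the libraries is unknown. All 11 epithelial marker genes had a peak in the TRE-Msi2 list and all 11 in the WT list, while 0 of 8 stromal, blood and muscle markers had one in either list (upper limit of the interval 36.9%). No library of input RNA or RNA abundance was used here, so binding and amount of a small RNA cannot be told apart. In these bulk preparations, fewer cells with an RNA and less of it per cell cannot be told apart either.

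Small RNAs do much of the work of making and reading messages in a cell. tRNAs bring amino acids to the ribosome and 5S rRNA is a part of its large subunit. Spliceosomal snRNAs recognise the ends of introns, snoRNAs guide chemical modification and cleavage of ribosomal RNA, 7SK restrains transcription elongation, and 7SL is the RNA of the signal recognition particle. MicroRNAs are cut from hairpins and guide Argonaute proteins to messages, mostly through the seed near their 5′ end. Many tRNAs, snRNAs and 5S rRNAs come from families of near-identical gene copies, whereas most snoRNAs and many microRNAs are cut from introns of a host gene. Musashi proteins are best known for binding messages and controlling their translation and stability.

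Of the sequences behind these peaks, the reference tables hold those of mature microRNAs, and 12 of the 15 microRNA genes with a peak matched an entry. The ones shown are miR-194, the sole member of a list of intestinal and processing-regulated microRNAs with a peak, and those that lie wholly or partly inside a microRNA peak with a score of 25 or more in either list. They are RefSeq sequences on GRCm38.p6, written 5′ to 3′, with the seed (bases 2 to 8) in capitals.
mmu-miR-194-5p: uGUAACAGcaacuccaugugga
mmu-miR-194-1-3p: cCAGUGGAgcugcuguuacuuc
mmu-miR-1982-3p: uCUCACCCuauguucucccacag
mmu-miR-677-5p: uUCAGUGAugauuagcuucuga
mmu-miR-677-3p: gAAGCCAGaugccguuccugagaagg
mmu-miR-147-5p: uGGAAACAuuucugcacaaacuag
mmu-miR-1892: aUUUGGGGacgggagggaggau
mmu-miR-703: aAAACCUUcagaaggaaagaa
mmu-miR-1902: aGAGGUGCaguaggcaugacuu
mmu-miR-1981-5p: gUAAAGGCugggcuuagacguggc
mmu-miR-1981-3p: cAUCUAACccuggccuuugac
mmu-miR-6236: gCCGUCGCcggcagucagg
mmu-miR-6240: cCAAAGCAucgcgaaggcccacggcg
The 18 mature microRNAs under or beside these peaks carried 18 different seeds, so none of them shared a seed with another.

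The biotypes differed widely in how many of their genes had a peak. Of the 63 rRNA genes, 49 (77.8%, interval 65.5 to 87.3) had a TRE-Msi2 peak and 50 (79.4%, 67.3 to 88.5) a WT peak. A tandem array of 5S genes, described below, holds 48 of these 63 genes. In that array 47 genes had a TRE-Msi2 peak and 47 a WT peak. The rRNA share thus mostly describes the array and says little of rRNA genes elsewhere. Its interval treats copies that share sequence as independent. Of the 408 tRNA genes, 157 (38.5%, 33.7 to 43.4) had a TRE-Msi2 peak and 101 (24.8%, 20.6 to 29.2) a WT peak. The tRNA intervals likewise treat copies that share sequence as independent. Of the 157 genes, 33 lay in 1 array of cysteine tRNA genes, described below. The rRNA and tRNA shares stood above that of all nuclear genes, of which 13.1% had a TRE-Msi2 peak and 10.7% a WT peak. Of the 1004 snRNA genes, 142 (14.1%) had a TRE-Msi2 peak and 153 (15.2%) a WT peak, which is near that background in the TRE-Msi2 list and above it in the WT list.

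The guide RNAs lay at the other end. A TRE-Msi2 peak was found for 32 of 1340 snoRNA genes (2.39%) and a WT peak for 25 (1.87%). A TRE-Msi2 peak was found for 14 of 1228 microRNA genes (1.14%) and a WT peak for 11 (0.896%). Both shares were below the 24.8% of protein-coding genes with a TRE-Msi2 peak and the 20.3% with a WT peak, and below the 4.22% of lncRNA genes with a TRE-Msi2 peak and the 3.29% with a WT peak. Small RNA genes are short, so length favours the long genes in such a count. Counted by bases, TRE-Msi2 peaks covered 36.2% of tRNA and 14.0% of snRNA gene bases, but 1.42% of snoRNA, 0.877% of microRNA and 0.409% of protein-coding gene bases. WT peaks covered 23.3% of tRNA, 14.9% of snRNA, 1.11% of snoRNA, 0.831% of microRNA and 0.258% of protein-coding gene bases. Gene bases run from the start to the end of a gene, introns included, so the protein-coding shares are not those of mature messages.

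**Figure D1:**
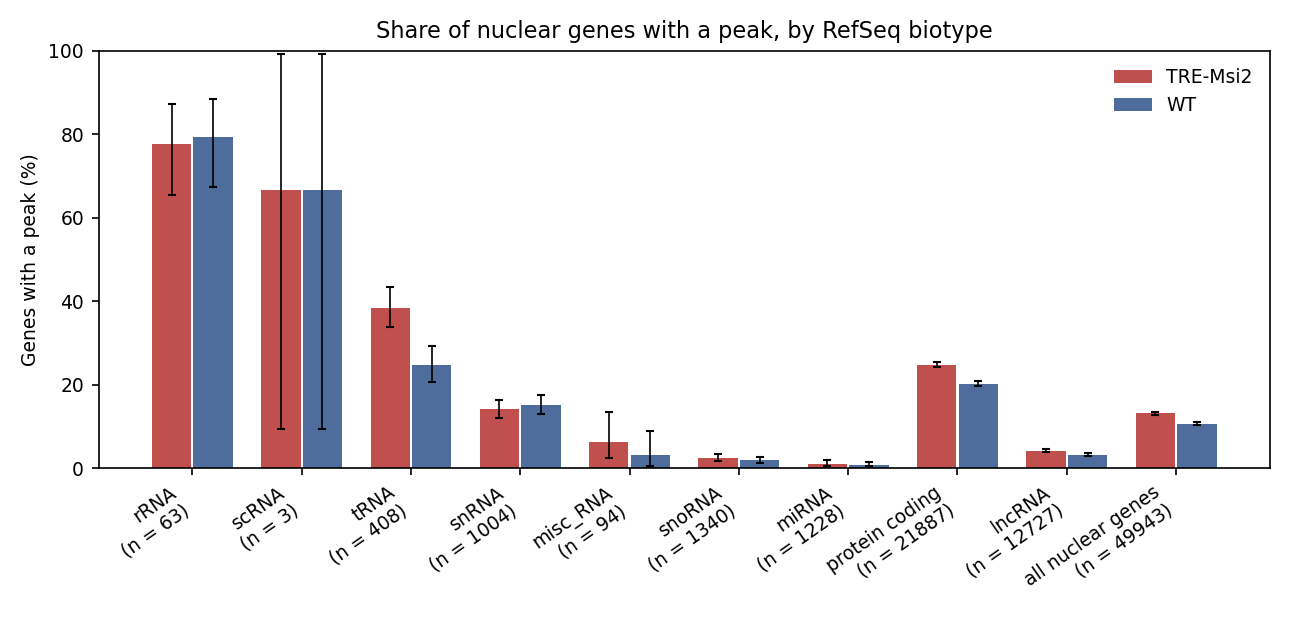
Percent of nuclear RefSeq genes with a peak, by biotype, in the TRE-Msi2 list (left bar of each pair) and the WT list (right bar). Error bars are exact 95% intervals that cover counting error only, and n is the number of genes. rRNA and tRNA genes stand above all nuclear genes (13.1% in TRE-Msi2 and 10.7% in WT), and snoRNA and microRNA genes are at 2.39% or lower. Of the 63 rRNA genes, 48 are copies in the 5S array, which the error bars treat as independent. Copies in tRNA and snRNA families are treated as independent too.

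The 5 highest small RNA scores in the TRE-Msi2 list belonged to Rn7sk (116.5), Rn4.5s (66), Gm23971 (66), Gm23444 (60) and Rn7s2 (60). Rn7sk, the 7SK RNA, also had the highest small RNA score in the WT list. It scored 116.5 in TRE-Msi2 and 83 in WT, which is the percentile 99.98 of all TRE-Msi2 peaks and 99.8 of all WT peaks. Its peak, chr9:78175194-78175593 on the minus strand of mm10, covered 292 of its 332 bases in each list. That peak is 400 nt wide in each list, so both scores appear to be means over bins. Rn4.5s, the 4.5S RNA of rodents, had a score of 66 in TRE-Msi2 and 45 in WT.

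The 7SL genes Rn7s1 and Rn7s2, annotated as scRNA, each had a peak in each list. Rn7s2 had a score of 60 in TRE-Msi2 and 26 in WT, in the same 200-nt bin. Rn7s1 had a score of 33.5 in TRE-Msi2, from a peak of 400 nt, and 20 in WT, from a peak of 200 nt. The remaining scRNA gene, Mascrna, had no peak in either list.

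Of the rRNA peaks, nearly all lay over 5S genes in 1 tandem array on chromosome 8 (chr8:123538784-123622046, 83.3 kb). The array holds 48 genes, and 47 of them had a TRE-Msi2 peak and 47 a WT peak, all on the minus strand. The exception, n-R5s109, was the same gene in each list. In the TRE-Msi2 list, 17 of the 34 copies under a single-bin peak had the same score, 46. In the WT list, 17 of the 28 such copies had the same score, 48.

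Copies up to 83.3 kb apart, Rn5s among them, thus had the same score within a list. Reads from copies of the same sequence can be counted at each copy or split among them, so the scores of single copies are uncertain, and how the authors placed such reads was not given in the sources used here. Of the copies at the highest score, 12 of 17 lay wholly inside their bin in each list and the shortest overlap was 106 bases. The 13 copies under wider TRE-Msi2 peaks scored 27 to 36 and the 19 under wider WT peaks scored 19.5 to 39.5, and each of these peaks held the whole gene. Away from the array, n-R5s33 in Lrch3 on chromosome 16 had a WT peak of score 15, the lowest of a single bin, and no TRE-Msi2 peak.

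**Figure D2:**
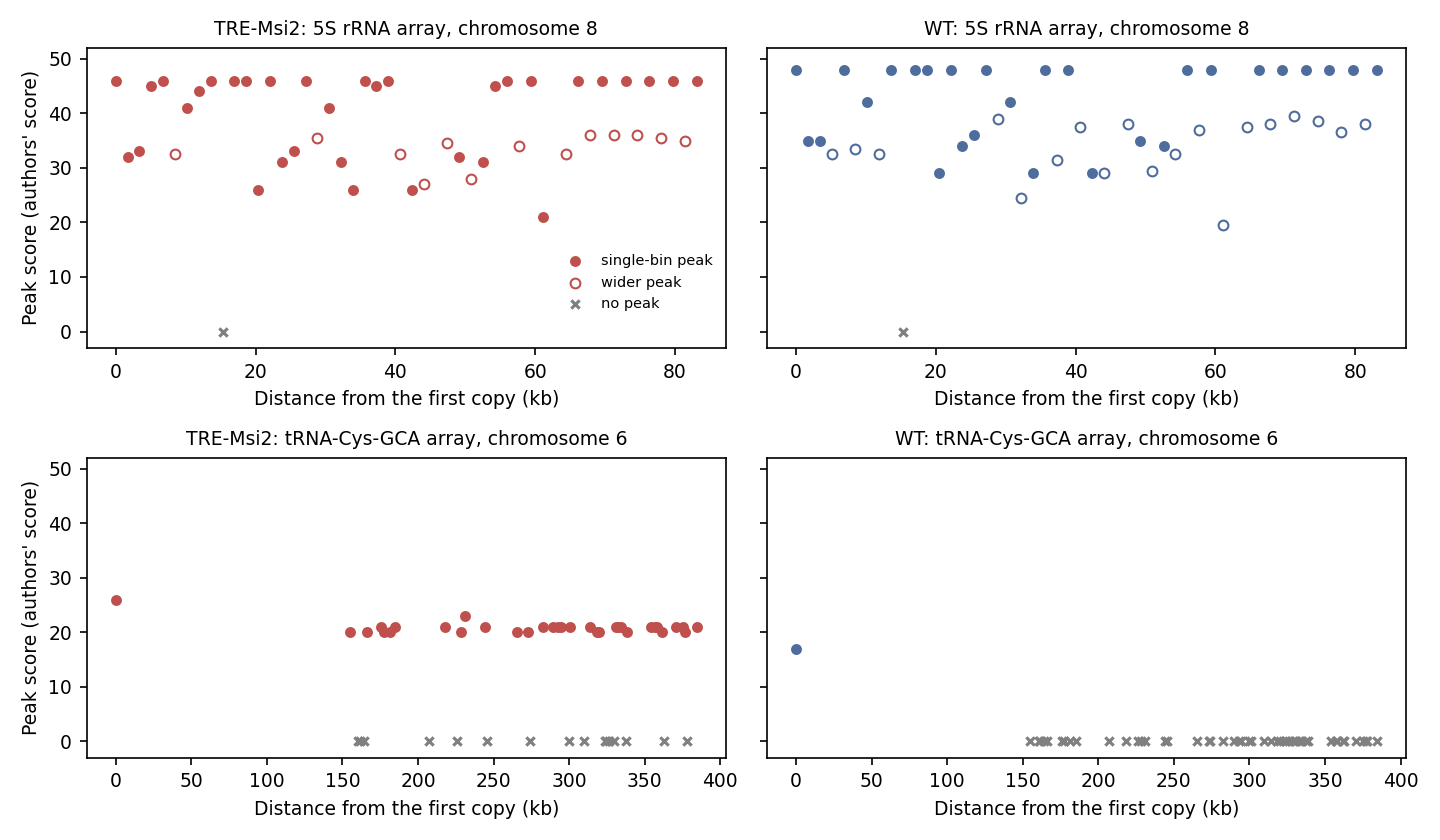
Peak score of each gene copy against its distance from the first copy, for the 5S rRNA array (top) and the tRNA-Cys-GCA array (bottom), in the TRE-Msi2 list (left) and the WT list (right). Filled points are single-bin peaks, open points wider peaks, and crosses at 0 mark copies with no peak. Many 5S copies share a score of 46 in TRE-Msi2 and 48 in WT, and 33 cysteine tRNA copies have a TRE-Msi2 peak against 1 with a WT peak. Of those 33 copies, 32 score 20 to 23, next to the lowest single-bin score of 20.

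Cysteine tRNA genes with the anticodon GCA differed most in count between the lists among the tRNA families. Of 57 such genes, 41 had a TRE-Msi2 peak and 4 a WT peak. The array on chromosome 6 (chr6:47978997-48363603, 384.6 kb) holds 49 of them, of which 33 had a TRE-Msi2 peak and 1 a WT peak. The WT peak was over n-TCgca57, which stands 154.9 kb before the next copy and scored 26 in TRE-Msi2 and 17 in WT. The other 32 scored 20 to 23 in TRE-Msi2 with a median of 21, next to the lowest single-bin score of 20, and 20 of them were on the minus strand. Among bins outside small RNA genes in both lists, the median score ratio of TRE-Msi2 over WT was 1.53. Divided by it, 21 becomes 13.7 and 23 becomes 15, the lowest WT single-bin score. Whether these copies differed between the lists relative to other bins was not tested. The highest score of this anticodon was over n-TCgca54 on chromosome 11, with 35 in TRE-Msi2 and 22 in WT.

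All 56 tRNA genes with a peak in 1 list alone were in the TRE-Msi2 list, and 0 were in the WT list alone. By anticodon they were 37 Cys-GCA, 7 Ile-AAT, 4 Tyr-GTA, 4 Pro-TGG, 3 Ala-AGC and 1 Met-CAT gene. Their TRE-Msi2 scores ran from 20 to 28 with a median of 21, against a range of 16 to 52 and a median of 30 for the 101 tRNA genes with a peak in both lists. Divided by 1.53 as above, 21 becomes 13.7 and 28 becomes 18.3, beside the lowest WT single-bin score of 15. The 80 tRNA bins in both lists had a lower median ratio, 1.30, and 11 of them were above 1.53. Among them, the 3 Cys-GCA bins had a median ratio of 1.59. Division by 1.30 would give values higher than those above. Whether these genes differed between the lists relative to other bins was not tested. When the TRE-Msi2 list was shortened to the length of the WT list by score, its small RNA genes with a peak numbered 327 in place of 402.

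The peaks were spread unevenly over the tRNA repertoire. Of 48 anticodon families, 21 had a TRE-Msi2 peak and 19 a WT peak, and 27 families with 156 genes had none in either list. No gene for arginine (24 genes), asparagine (13), glutamine (16), phenylalanine (7), serine (22) or tryptophan (8) tRNA had a peak. Of the leucine genes 1 of 26 had one in each list, n-TLtag1, with 27 in TRE-Msi2 and 15 in WT.

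Aspartate, glycine, glutamate and histidine tRNAs lay at the other end, with the same number of genes in each list. A peak was found for 15 of 16 Asp-GTC genes, with a median score of 37 in TRE-Msi2 and 29 in WT. It was found for 13 of 14 Gly-GCC genes (medians 30 in TRE-Msi2 and 24 in WT) and 7 of 7 Gly-TCC genes (medians 37 in TRE-Msi2 and 32 in WT). The 9 of 12 Glu-CTC genes had medians of 29.3 in TRE-Msi2 and 26 in WT, and the 6 of 8 Glu-TTC genes 24 in TRE-Msi2 and 17 in WT. Glycine was not covered as a whole, since 0 of 6 Gly-CCC genes had a peak. Among proline tRNAs, 6 of 6 Pro-AGG genes had a TRE-Msi2 peak with a median of 22.5, and 6 of 6 had a WT peak, each with the score 15.

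The highest tRNA score in the TRE-Msi2 list was n-TYgta9, a tyrosine tRNA on chromosome 5, with 52 in TRE-Msi2 and 26 in WT. The highest in the WT list was 36, over n-THgtg3, a histidine tRNA on chromosome 2 with 49 in TRE-Msi2, and over n-TDgtc14, an aspartate tRNA on chromosome 5 with 38.5 in TRE-Msi2. The spread among copies of 1 anticodon differed between families. The 12 single-bin Gly-GCC genes of the TRE-Msi2 list lay between 27 and 32, and the 11 of the WT list between 23 and 26. Within Asp-GTC the scores ran from 24 to 48 over 8 single-bin genes in TRE-Msi2 and from 20 to 36 over 9 in WT. Within chr1:171037029-171081946, 15 tRNA genes had a peak in each list, namely 4 Asp-GTC, 4 Gly-TCC, 4 Gly-GCC and 3 Glu-CTC genes, at 27 to 48 in TRE-Msi2 and 20 to 34 in WT.

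**Figure D3:**
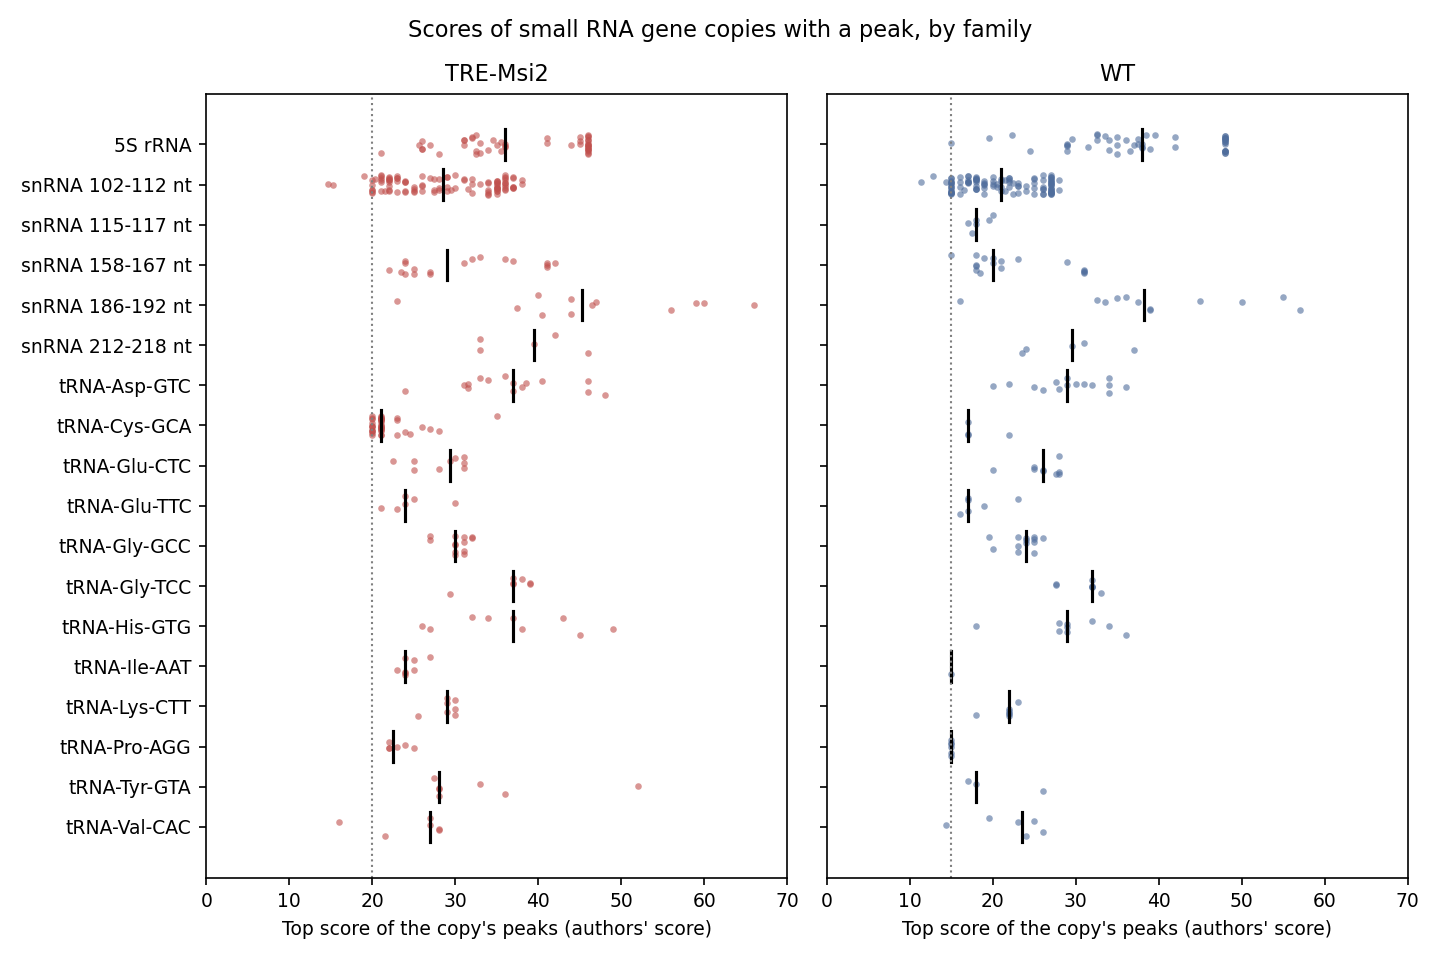
Top score of each gene copy with a peak, by family, in the TRE-Msi2 list (left) and the WT list (right). Each point is 1 gene copy, black lines are medians and dotted lines mark the lowest single-bin score (20 in TRE-Msi2, 15 in WT). Copies spread over 27 to 32 in Gly-GCC and over 24 to 48 in Asp-GTC in TRE-Msi2, and the median of the 40 single-bin Cys-GCA copies there is 21.

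Most snRNA genes in the annotation carry no family name, so they were grouped by length, with the few named genes as landmarks. The group of 102 to 112 nt contains Rnu6 (107 nt), the U6 RNA of the spliceosome, and 719 genes in all. A TRE-Msi2 peak was found for 102 of them and a WT peak for 111, with 99 genes in both. Rnu6 scored 38 in TRE-Msi2, the highest of the group there, and 26 in WT, where the highest was 28. Scores in this group also repeated: 13 genes had exactly 35 in TRE-Msi2 and 23 genes had exactly 27 in WT. Of the 12 genes of this length with a WT peak alone, 11 had the lowest single-bin score, 15.

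Genes of 186 to 192 nt, the length of the U2 RNA Rnu2-10 (187 nt), had the highest scores among the spliceosomal lengths. In each list 12 of 25 had a peak, with medians of 45.2 in TRE-Msi2 and 38.2 in WT. U2 pairs with the branch point of introns. Gm23971 on chromosome 11 scored 66 in TRE-Msi2 and 37.5 in WT, where its peak was 2 bins wide. Gm23444 scored 60 in TRE-Msi2 and 57 in WT, Gm26316 scored 59 in TRE-Msi2 and 50 in WT, and Gm24497 scored 56 in TRE-Msi2 and 55 in WT. Rnu2-10 itself scored 44 in TRE-Msi2 and 39 in WT.

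The 5 U3 genes, whose RNA takes part in the cleavage of ribosomal RNA precursors, all had a peak in each list. Rnu3b4 scored 46 in TRE-Msi2 and 37 in WT, Rnu3b2 scored 42 in TRE-Msi2 and 31 in WT, Rnu3b1 scored 39.5 in TRE-Msi2 and 29.5 in WT, Rnu3b3 scored 33 in TRE-Msi2 and 23.5 in WT, and Rnu3a scored 33 in TRE-Msi2 and 24 in WT. The U1 RNA, which recognises the start of introns, was represented by Rnu1a1 with 36 in TRE-Msi2 and 29 in WT and by Rnu1b1 and Rnu1b2 with 24 each in TRE-Msi2 and 18 each in WT. Rnu1b6 had no peak in either list. Of the 108 genes of 158 to 167 nt, the U1 length, 18 had a TRE-Msi2 peak and 17 a WT peak.

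Genes of the length of the U5 RNA had peaks in the WT list alone. Of 11 genes of 115 to 117 nt, 0 had a TRE-Msi2 peak and 6 had a WT peak, among them Rnu5g (19.5) and Gm25313 (20). Their WT scores were 17 to 20, within 5 of the lowest single-bin WT score of 15. Divided by 1.53 as above, the lowest TRE-Msi2 single-bin score of 20 becomes 13.0, which is below all of these WT scores. Whether these genes differed between the lists relative to other bins was not tested. The group of 138 to 150 nt went the other way: of 11 genes, 2 had a TRE-Msi2 peak (20 and 24) and 0 a WT peak. Rnu11 and Rnu12 of the minor spliceosome and Rnu7, the U7 RNA of histone message processing, had no peak in either list.

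In some longer genes every peak lay over an snRNA copy. The lncRNA gene D230017M19Rik had 2 peaks in each list, over Gm24497 and Gm25939. Tex14, a testis-expressed gene on chromosome 11, holds Rnu1a1, Gm22068 and the 4 Rnu3b genes, and its 6 TRE-Msi2 peaks were those 6. Its 7 WT peaks were the same genes plus Gm23137, with 15.

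Few snoRNA genes had a peak, and most of those that did lay inside a longer gene. Of the 24 TRE-Msi2 snoRNA peaks 21 lay in a protein-coding or lncRNA gene, and of the 21 WT peaks 18 did. The hosts included genes for ribosomal proteins and a translation factor (Rps12, Rpl7a, Rpl13a, Rpl17 and Eif4g2), Hspa8, Atp5b, Cox7c, Tpt1, Rabggtb and Taf1d, and the snoRNA host lncRNAs Gas5 and Snhg1. Of 8 snoRNA genes in Gas5, 5 lay under a TRE-Msi2 peak and 4 under a WT peak, with top scores of 29 in TRE-Msi2 and 20 in WT. Of 8 in Snhg1, 5 lay under a TRE-Msi2 peak and 3 under a WT peak, with top scores of 32.5 in TRE-Msi2 and 26.3 in WT.

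Such a peak can belong to the host message as well as to the snoRNA. Whole snoRNAs lay inside the peak for 16 of 32 genes in TRE-Msi2 and 10 of 25 in WT. The highest TRE-Msi2 score, 50 against 28 in WT, was beside Gm22574 in Cox7c, a respiratory chain subunit, and overlapped 7 of its 60 bases. Over Hspa8, a heat shock protein gene, 1 TRE-Msi2 peak of 3000 nt (score 36.35) spanned Snord14c, Snord14d and Snord14e. The WT list had separate peaks there, with 36.5 over Snord14c and 33.2 over Snord14d, and none over Snord14e. In Atp5b, which holds Snord59a and Mir677, 2 of 5 TRE-Msi2 peaks and 2 of 5 WT peaks touched the small RNAs, and the highest of its peaks, 50 in TRE-Msi2 and 29 in WT, did not.

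The 3 snoRNA genes outside hosts in the TRE-Msi2 list were Gm24826 (34 in TRE-Msi2 and 27 in WT), Gm24949 (33 in TRE-Msi2 and 27 in WT) and LOC115488404 (22, TRE-Msi2 alone). Gm24826 and Gm24949 are 215 nt long, the length of Rnu3b1. Snord118, the U8 RNA of ribosomal RNA processing, had a WT peak of score 20 and no TRE-Msi2 peak.

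The strand of the peak relative to the host was compared across biotypes. Within protein-coding genes of known strand, 9 of 9 snoRNA peaks in TRE-Msi2 and 9 of 9 in WT lay on the strand of the host. In lncRNA genes the counts were 7 of 7 in TRE-Msi2 and 4 of 4 in WT. MicroRNA peaks lay on the host strand in 8 of 9 cases in TRE-Msi2 and 5 of 5 in WT, while the single microRNA peak in an lncRNA gene, over Mir6236, lay on the opposite strand in each list. Of other peaks in protein-coding genes, 86.0% did in TRE-Msi2 and 83.9% in WT.

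For snRNA peaks in protein-coding genes the count was 18 of 39 in TRE-Msi2 (46.2%, interval 30.1 to 62.8) and 19 of 38 in WT (50%, 33.4 to 66.6), and in lncRNA genes 7 of 11 in TRE-Msi2 and 8 of 13 in WT. For tRNA peaks it was 5 of 12 in TRE-Msi2 and 5 of 11 in WT, and in lncRNA genes 14 of 29 in TRE-Msi2 and 5 of 11 in WT. In each list the share for snRNA peaks in protein-coding genes was below that of the other peaks, and its interval treats peaks as independent. The difference between biotypes was not tested, since peaks of 1 list are not replicates and copies of a family share sequence.

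**Figure D4:**
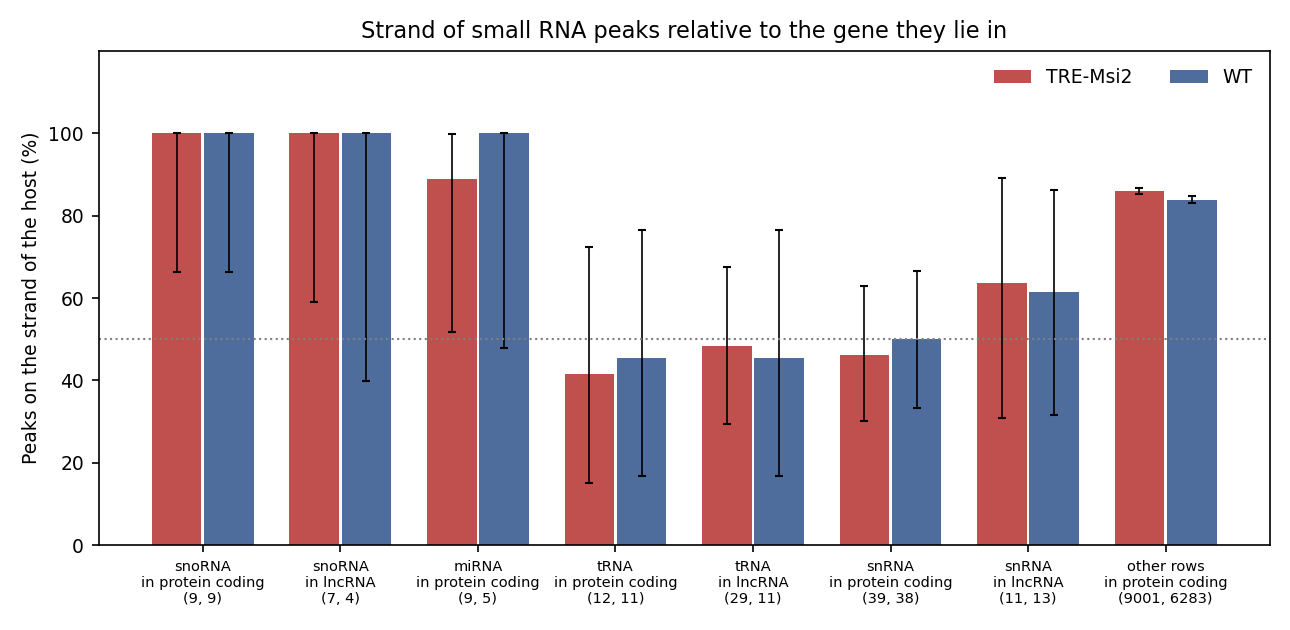
Percent of small RNA peaks on the strand of the gene they lie in, in the TRE-Msi2 list (left bar of each pair) and the WT list (right bar), with the number of peaks of each list in parentheses. Error bars are exact 95% intervals that cover counting error only, and the dotted line marks 50%. All snoRNA peaks in genes of known strand lie on the host strand, and snRNA and tRNA peaks in protein-coding genes are at 50% or lower.

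Peaks over small RNAs more often lay away from longer genes than other peaks did. Of the 397 TRE-Msi2 peaks 242 (61.0%), and of the 344 WT peaks 227 (66.0%), touched neither a protein-coding nor a lncRNA gene, against 27.3% of the other TRE-Msi2 and 28.4% of the other WT peaks. This held for 83 of 142 snRNA peaks in TRE-Msi2 and 89 of 153 in WT, and for 94 of 153 tRNA peaks in TRE-Msi2 and 75 of 98 in WT. Small RNA genes were chosen here by their own annotation, so this is a description of where such genes lie.

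MicroRNA genes had 14 TRE-Msi2 and 11 WT peaks, and 12 of the 14 TRE-Msi2 and 8 of the 11 WT peaks lay in protein-coding genes. The whole hairpin lay inside the peak for 8 of 14 genes in TRE-Msi2 and 8 of 11 in WT. Where the strand of the hairpin is given, 12 of 12 peaks in TRE-Msi2 and 8 of 8 in WT were on it. Of the 35 microRNAs of the intestinal and processing-regulated list, which includes the let-7 and miR-200 families and miR-192, 1 had a TRE-Msi2 peak and 0 a WT peak. That gene was Mir194-1 in Iars2, with a score of 22 (chr1:185313122-185313321, plus strand). The peak held 3 of the 67 hairpin bases and none of the 2 mature microRNAs printed above.

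The highest microRNA scores were next to hairpins more than over them. Mir1982 lies in Oaz1, an inhibitor of polyamine synthesis, and its peak scored 54 in TRE-Msi2 and 33 in WT. The peak (chr10:80828856-80829255, plus strand) held 15 of the 74 hairpin bases, which are the 3′ end of mmu-miR-1982-3p and none of its seed. Mir5107 lies in Cd74, the invariant chain of antigen presentation, and its peak scored 41.6 in TRE-Msi2 and 47 in WT with 17 hairpin bases.

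Other peaks held most or all of a hairpin. Mir677 in Atp5b scored 35 in TRE-Msi2 and 14.7 in WT, and both of its mature microRNAs lay inside the peak in each list. Mir1981 in Mtarc2 had a TRE-Msi2 peak of 25 and no WT peak. Mir147 in AA467197 had a WT peak of 32 over the whole hairpin and a TRE-Msi2 peak of 29.7 over 17 of its 79 bases. Mir6236 scored 26 in TRE-Msi2 with 113 of its 123 bases in the peak, and 17.5 in WT with all of them. Mir6240 scored 26 in TRE-Msi2 and 21 in WT, with 73 of its 117 bases in the peak in each list.

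Genes annotated as misc_RNA are not small: they span 686 to 191981 nt with a median of 10703 nt. Of 94 such genes 6 had a TRE-Msi2 peak and 3 a WT peak. 9130208D14Rik on chromosome 7 held 6 TRE-Msi2 peaks with a top score of 31 and 5 WT peaks with a top score of 30.5. Without misc_RNA the lists held 384 TRE-Msi2 and 335 WT small RNA peaks.

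Over all scores, TRE-Msi2 peaks over small RNAs overlapped a WT peak more often than other TRE-Msi2 peaks did, but not in the lowest score class when peaks of all widths were counted. Of the TRE-Msi2 small RNA peaks, 79.8% (interval 75.6 to 83.7) overlapped a WT peak on the same strand, against 57.6% of all TRE-Msi2 peaks and 57% of those outside small RNA genes. Of the WT small RNA peaks, 93.0% (89.8 to 95.5) overlapped a TRE-Msi2 peak, near the 91.3% of other WT peaks. Among TRE-Msi2 single-bin peaks in the highest of 5 score classes (32 and above), 112 of 113 small RNA peaks (99.1%) and 83.0% of the others were shared. In the lowest class (20 to 21) the shares were 12 of 39 (30.8%, 17.0 to 47.6) for small RNA peaks and 11.2% for the others. Over peaks of all widths, the lowest class had 18 of 43 small RNA peaks (41.9%) and 44.2% of the others shared in TRE-Msi2. In the lowest class of the WT list, 26 of 38 small RNA peaks (68.4%) and 85.9% of the others were shared. These shares describe the lists, since copies of a family are not independent. Without the 5S and Cys-GCA arrays the TRE-Msi2 share was 84.9%.

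By biotype, 133 of 142 snRNA peaks (93.7%) and 49 of 49 rRNA peaks of the TRE-Msi2 list were shared, and 98 of 153 tRNA peaks (64.1%). Of the WT list, 133 of 153 snRNA peaks (86.9%), 49 of 50 rRNA peaks and 98 of 98 tRNA peaks were shared. By gene, 324 small RNA genes had a peak in both lists, 78 in TRE-Msi2 alone and 21 in WT alone. The 324 are 80.6% of the TRE-Msi2 genes and 93.9% of the WT genes.

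The strand of the peak was the same in both lists for 322 of the 324 genes. An exception was LOC115486844 on chromosome 7, an snRNA gene of 127 nt in C5ar2, a complement receptor gene. The same bin (chr7:16234852-16235051) held a peak of 38 on the plus strand in TRE-Msi2 and of 36 on the minus strand in WT, and neither list had a peak on the opposite strand there. The bin overlapped 13 bases of the snRNA. These were the highest scores of small RNA peaks found in 1 list alone. Next in the TRE-Msi2 list were Gm4107 (36) and Gm3164 (30.75), both misc_RNA, and next in the WT list were Gm25313 and Snord118, with 20 each.

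The ratio of scores in the same bin shows which small RNAs stood relatively higher or lower in each list. Over 3722 single-bin peaks outside small RNA genes that had the same position and strand in both lists, the median ratio of TRE-Msi2 over WT was 1.53, with the middle 50% from 1.32 to 1.76. For the 220 such bins over small RNA genes it was 1.30, and 24 of them were above 1.53. Since depth is unknown, a ratio is read only against that of the other bins, and bins near the lower limit of either list are missing.

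The 5S array stood at the low end: all 28 of its bins had a ratio under 1, from 0.897 to 0.976 with a median of 0.958, as did 99 of the 3722 other bins. Copies of the array share sequence and are not independent. The 5 bins over genes of U2 length had a median of 1.05, the 7 over Glu-CTC tRNA genes 1.11, and the 76 over genes of U6 length 1.33. Tyrosine tRNA genes stood at the high end, with ratios of 1.83, 2 and 2.12 for n-TYgta7, n-TYgta9 and n-TYgta3. Rn7s2 had the highest ratio of a small RNA, 2.31, which is the percentile 97.7 of all bins, and n-TAagc9, an alanine tRNA, had 2.11 (38 in TRE-Msi2 and 18 in WT).

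**Figure D5:**
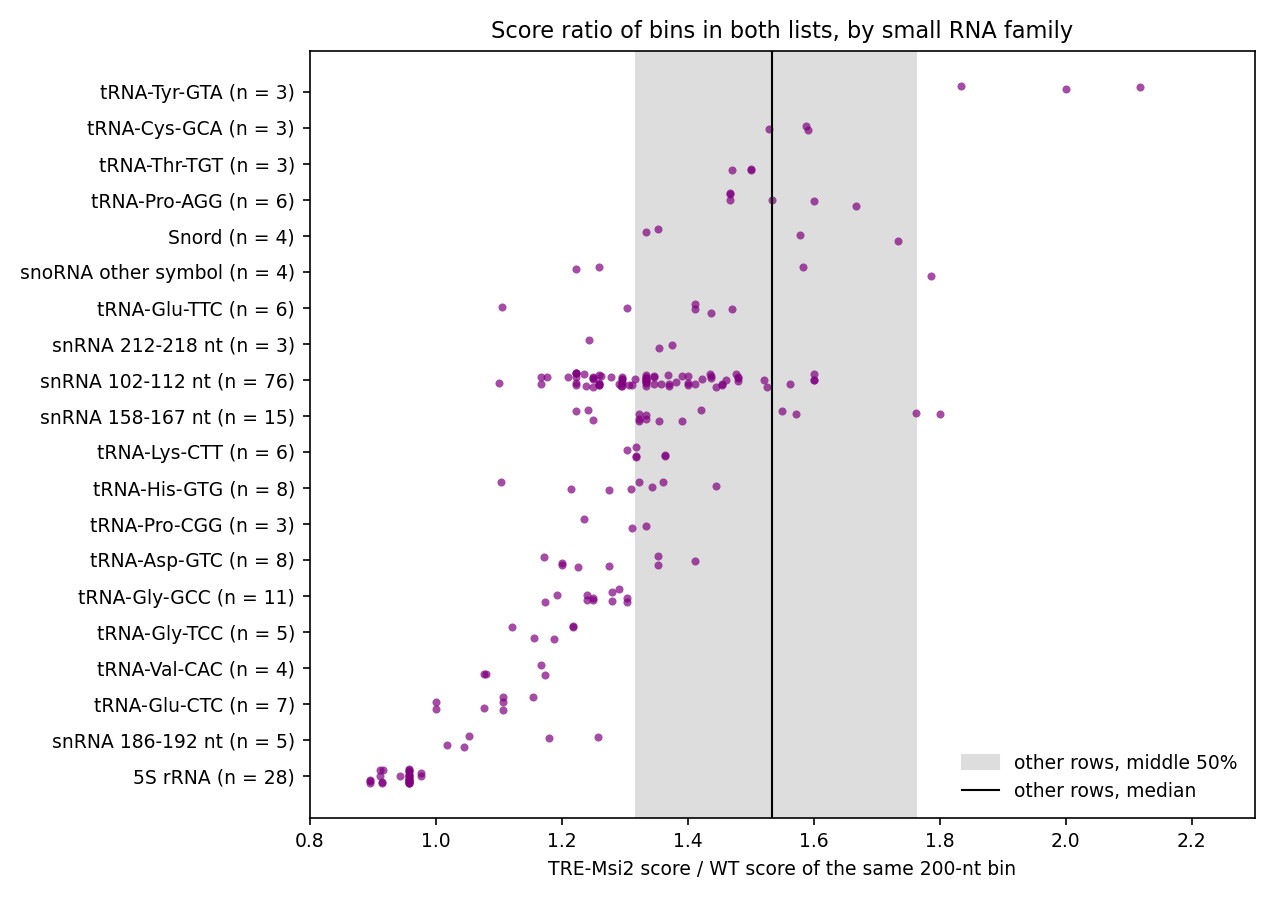
TRE-Msi2 score divided by WT score for each 200-nt bin that is a single-bin peak in both lists, by small RNA family with 3 or more such bins. Points are bins, the vertical line is the median over the 3722 bins outside small RNA genes (1.53) and the grey band their middle 50% (1.32 to 1.76). The 28 bins of the 5S rRNA array lie below 1 and the 3 tyrosine tRNA bins at 1.83 or higher.

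Of 39 genes for proteins that make small RNAs or belong to small ribonucleoproteins, 17 had a TRE-Msi2 peak and 14 a WT peak, and 14 had both. These shares, 43.6% in TRE-Msi2 (interval 27.8 to 60.4) and 35.9% in WT (21.2 to 52.8), stand beside 24.8% of all protein-coding genes in TRE-Msi2 and 20.3% in WT, with no allowance for gene length. Ddx5, an RNA helicase of microRNA processing, had 6 peaks per list, the highest at 56 in TRE-Msi2 and 34 in WT. Ago2, the slicing Argonaute, had 6 TRE-Msi2 peaks (top score 34) and 5 WT peaks (26.5). Npm1, a nucleolar chaperone, had 5 peaks per list, the highest at 37.5 in TRE-Msi2 and 51.5 in WT. Drosha, Dgcr8, Xpo5, Dicer1, Ago1, Ago3 and Ago4 had no peak in either list.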

How the data were processed

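MSI2 CLIP-seq peaks were measured in TRE-Msi2 and WT intestinal epithelium, 2 libraries each, crosslinked with 2 pulses of 265 nm light at 400 mJ/cm2, per the labels' protocols. The submitters' processing notes name cutadapt, TopHat, mm9 and mm10, without versions. The deposited file names describe Piranha peaks after removal of duplicate reads. In the authors' deposited lists, each row joins a score and a p-value in 1 cell; the p-value was not used. Coordinates place both lists on mm10.

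Peaks were overlapped with nuclear genes of the RefSeq GRCm38.p6 table (4140 small RNA genes of 49943), which gives no strand or exons; strands came from promoter and microRNA tables. Host strand was read only for peaks in 1 stranded gene. Sharing needed 1 base on the same strand. Ratios of scores were added after seeing the data. Python 3.11.15, pandas 2.3.3 and SciPy 1.17.1 were used, and overlaps were tested on simulated data. Genes named were the highest-scoring peaks, tops of biotypes, peaks outside hosts, hosts with several peaks, single-list peaks and fixed lists; others named were chosen after their values were seen. The members and lists were chosen with earlier results of these data known.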

Additional observations from a re-analysis of the deposited data

How the results depend on the processing

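Of 72 recomputed values 53 stayed within their limits, and 19 moved. For shares and median scores the limits were the 95% interval of the main value. For counts they were a fixed fold range around the main value. That range was wide, and 268 TRE-Msi2 genes against 402 counted as within it. No paired analysis was possible because each deposited list pools 2 libraries and carries no replicate, and for the same reason no replicate could be left out. Counts of peaks and genes moved where the whole small RNA gene had to lie inside the peak, with 255 TRE-Msi2 and 215 WT peaks over 262 and 219 genes. In the upper 50% of the lists by score, 261 TRE-Msi2 peaks were left, with medians of 33 in TRE-Msi2 and 27 in WT, a TRE-Msi2 sharing of 85.4% and 33.0% of TRE-Msi2 peaks in a longer gene. The strand rule, which only microRNA genes can meet, left 12 TRE-Msi2 and 8 WT peaks over 12 and 8 genes. Sharing was 72.4% of TRE-Msi2 and 85.6% of WT peaks among single-bin peaks, and 90.7% of TRE-Msi2 and 86.0% of WT peaks after the TRE-Msi2 list was shortened to the WT length. Without the 5S and Cys-GCA arrays, an alternative chosen after seeing the data, TRE-Msi2 sharing was 84.9% and 39.5% of WT peaks lay in a longer gene. The causes were not tested beyond the smaller sets these alternatives leave. The unknown depth and the 200-nt bins limit what the scores resolve, and a gene without a peak may lie below the lowest score of 20 in TRE-Msi2 or 15 in WT.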

Other observations

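Some small RNA genes carry biotypes outside the rule, and a few of them had peaks. Among 49 such genes, mostly guide RNAs, 4 had a TRE-Msi2 peak and 4 a WT peak. This is 8.16% in each list, beside 13.1% of all nuclear genes in TRE-Msi2 and 10.7% in WT. Besides the Y RNAs, these were Gm22009 (41 in TRE-Msi2 and 37 in WT) and Rmrp (25 in TRE-Msi2 and 15.5 in WT). Rpph1 and Terc had no peak. Rny3 and Rny1, the Y RNAs that bind the Ro protein, each had a peak in each list. Rny3 scored 71 in TRE-Msi2 and 52 in WT, and Rny1 scored 38 in TRE-Msi2 and 23 in WT. Vaultrc5, a vault RNA gene annotated as lncRNA, scored 35 in TRE-Msi2 and 23 in WT. Bc1, a neuronal cytoplasmic RNA, had no peak in either list. Of the 24 tRNA and rRNA genes of the mitochondrial genome, 22 lay under 3 TRE-Msi2 peaks and 20 under 3 WT peaks.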
